A study of Mus musculus with 80 samples.

Results

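Microglial translatomes were compared after a magnetic sort alone and after a droplet sort. The libraries were chosen by their titles: those from autoMACS alone, in which microglia were held on a magnetic column by beads bound to CD11b, were set against those from the FACSAria, a cytometer that breaks the stream into droplets and deflected cells positive for CD11b, CD45 and eGFP. Only the ribosome-bound RNA (TRAP) fraction was chosen, which gave 4 autoMACS-TRAP and 4 FACSAria-TRAP libraries, 8 of the 48 libraries of the sort comparison and of the 80 in the series. The autoMACS-TRAP libraries came from mice 66 and 67 (male) and 72 and 73 (female), and the FACSAria-TRAP libraries from mice 945 and 991 (male) and 69 and 992 (female). All were adult and carried the genotype Cx3cr1(Jung)-cre/Ert2+;NuTRAP+ and had received tamoxifen at 100 mg/kg per day at about 3 months of age, so both groups, and the others of the sort comparison, shared these alleles and this induction. The recombinase is driven by Cx3cr1 and induced by tamoxifen, so ribosomes are tagged in cells that expressed Cx3cr1 at induction, microglia and other brain macrophages alike. The paper reports that tagged blood cells positive for CD11b and CD45 had fallen to control levels by the interval it kept before harvest. All cells had passed through the same papain-based dissociation of the brain. No mouse gave libraries to both sorts, so the sort and the set of mice cannot be told apart.

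Microglia are the resident macrophages of the brain parenchyma, and they depend on signalling through the receptor Csf1r and on the transcription factor Sall1. In TRAP, an antibody to the eGFP fused to the ribosomal protein Rpl10a pulls down ribosomes of the tagged cells together with the mRNA they hold, and RNA that is not on such ribosomes is largely washed away. Magnetic columns hold any cell with bound beads and expose it to little pressure, whereas a droplet sorter examines each cell by its fluorescence at high pressure. A comparison of the sorts asks which parts of the measured translatome depend on the instrument.

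The autoMACS-TRAP libraries held 18319392 to 20168116 counts and the FACSAria-TRAP libraries 13528743 to 16710026 counts, so depth did not overlap between the groups. Values are given below as CPM, the reads of a gene per 1e6 reads of its library after TMM scaling, in mouse order 66, 67, 72, 73 for autoMACS-TRAP and 69, 945, 991, 992 for FACSAria-TRAP, and fold changes are log2 values of autoMACS minus FACSAria with their standard error, from edgeR. The defining microglial markers were high in both groups: P2ry12, a purinergic receptor, lay at 3440.0, 3267, 3093 and 2812 CPM after autoMACS and at 3666, 3626, 3465 and 3017 CPM after FACSAria. The first principal component of the 8 libraries, over the 11037 genes with more than 5 counts in all 8, held 47.9% of the variance and placed the 4 autoMACS-TRAP libraries on one side and the 4 FACSAria-TRAP libraries on the other. The autoMACS-TRAP library of mouse 73 lay farthest out on it.

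Of 14953 genes tested, 543 (3.63%) differed more than 2-fold at a false discovery rate of 0.1, and most of these were lower after the magnetic sort: 473 (3.16%) were lower in autoMACS-TRAP and 70 (0.468%) were higher. The 38 lower genes with a mean of at least 50 CPM included Polr2a, Spen, Birc6 and Dst. Genes of liver and fat at lower levels, such as Apoa2, Alb and Fabp4, had larger fold changes. Another 237 lower genes had means under 1 CPM in both groups. Of the 473 genes, 158 had more than 5 counts in all 8 libraries. Another 100 had them in every FACSAria-TRAP library but not in every autoMACS-TRAP library, and 2 the reverse. The remaining 213 passed the count filter only through other groups of the fit. With the fit restricted to the 8 libraries, in which 11641 genes were tested, 269 genes were lower and 48 higher. Among the 11037 genes with more than 5 counts in all 8 libraries, 158 (1.43%) were lower, 17 (0.154%) were higher, and 86.6% lay within 0.5 of 0 on the log2 scale.

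Polr2a, which encodes the catalytic subunit of RNA polymerase II (chr11:69734410-69758223, mm10, minus strand), had the largest change among the called genes with a mean of at least 50 CPM over the 8 libraries. It lay at 86.3, 79.3, 84.6 and 48.2 CPM in autoMACS-TRAP and at 314, 287, 332 and 299 CPM in FACSAria-TRAP (log2 fold change -2.05 ± 0.14, adjusted p = 2.86e-09). Every autoMACS-TRAP library was below every FACSAria-TRAP library, and mouse 73 was the lowest. Spen, a large RNA-binding corepressor (chr4:141467890-141538597), lay at 29.8, 31.6, 30.1 and 23.8 CPM against 99.9, 99.2, 105 and 111 CPM (log2 fold change -1.85 ± 0.17, adjusted p = 8.71e-08). Nav3, a neuron navigator family member that binds microtubule ends (chr10:109683439-110000219), lay at 65.5, 62.6, 69.3 and 31.6 CPM against 187, 231, 188 and 208 CPM (log2 fold change -1.83 ± 0.19, adjusted p = 2.92e-07). Cbl, an E3 ubiquitin ligase that turns off receptor tyrosine kinases (chr9:44149262-44234046), lay at 71.9, 53.97, 72.00 and 26.4 CPM against 174, 194, 191 and 191 CPM (log2 fold change -1.74 ± 0.20, adjusted p = 9.97e-07). None of these genes overlapped between the groups. For comparison, 11.8% of all genes tested did not overlap with autoMACS-TRAP lower, and 22.9% did not overlap in either direction.

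Other abundant genes for large proteins were lower too. Birc6, a giant ubiquitin-conjugating inhibitor of apoptosis, was lower (log2 fold change -1.28 ± 0.12, adjusted p = 5.88e-08). Dst, which links cytoskeletal filaments, was also lower (log2 fold change -1.38 ± 0.32, adjusted p = 0.00324). Outside the naming rule, and chosen after their values were seen, the endocytic receptor Lrp1 lay at 2087, 1719, 1943 and 1408 CPM against 3691, 3564, 4139 and 3115 CPM (log2 fold change -1.02 ± 0.10, adjusted p = 2.47e-07), the kinase Mtor at 30.9, 26.04, 30.1 and 20.9 CPM against 55.6, 48.9, 61.9 and 57.5 CPM (log2 fold change -1.05 ± 0.12, adjusted p = 8.43e-07), and the acetyltransferase Ep300 at 159, 147, 142 and 115 CPM against 291, 258, 293 and 307 CPM (log2 fold change -1.03 ± 0.09, adjusted p = 4.7e-08). Lrp1, Mtor and Ep300 were just past the 2-fold threshold, and without mouse 73 their values of -0.92, -0.95 and -0.95 fell short of it. The same held without mouse 991 for Lrp1 (-0.95), and Mtor without mouse 991 and Ep300 without mouse 992 also fell just short.

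The levels in the other sorted groups set these genes in context. In the autoMACS to Tyto-TRAP libraries, whose cells went through a cartridge sorter after the magnetic column, Polr2a lay at 229 to 325 CPM, and these came from mice 66, 67 and 73 of the autoMACS group. In Tyto-TRAP, with 5 libraries, it lay at 241 to 330.3 CPM. For Cbl, the levels were 165 to 203 CPM in autoMACS to Tyto-TRAP and 141 to 198 CPM in Tyto-TRAP. In the dissociated but unsorted Cell-TRAP libraries, which hold tagged ribosomes from the whole suspension, Polr2a lay at 183 to 218 CPM and Cbl at 113 to 146 CPM. For both genes, the autoMACS-TRAP libraries lay below all 16 other Cell-TRAP and sorted TRAP libraries. In Tissue-TRAP, from homogenized tissue that was not dissociated, Polr2a lay at 67.4 to 91.03 CPM, a range that overlapped that of autoMACS-TRAP, and Cbl at 4.42 to 7.82 CPM. These levels are descriptions, and no test was made between the other groups.

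**Figure D1:**
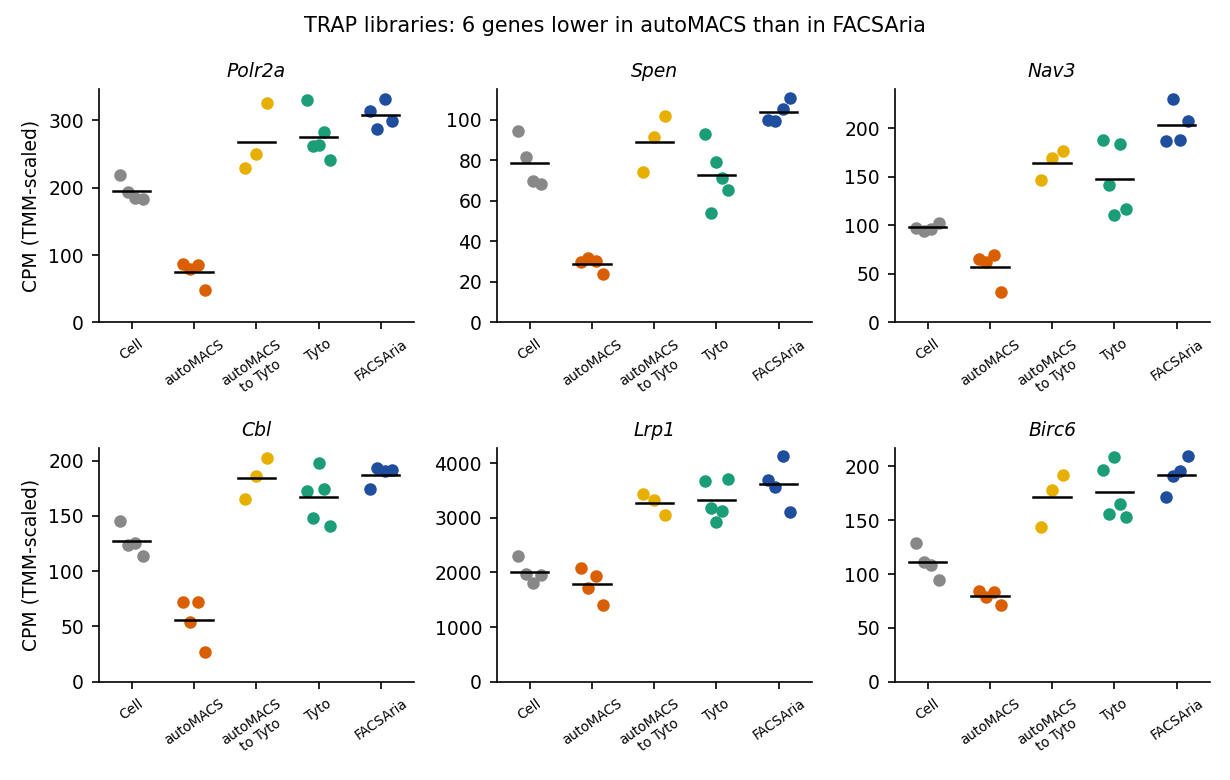
CPM (vertical axis, TMM-scaled, from 0) of 6 genes in the TRAP libraries of the cell suspension and the 4 sorts (horizontal axis), with 1 point per library and a line at each group mean. For Polr2a, the 4 autoMACS-TRAP libraries sit between 48.2 and 86.3 CPM, below the FACSAria-TRAP libraries at 287 to 332 CPM.

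The differences were then set against transcript length. Lengths were those of the longest annotated transcript of each gene (GENCODE mouse release 21, GRCm38), known for 10975 of the 11037 genes with more than 5 counts in all 8 libraries, and they were examined after the fold changes had been seen. The median log2 fold change was 0.39 for the 437 genes of at most 1000 bases, 0.23 for the 1762 of 1000 to 2000 bases, and 0.0023 for the 2237 of 3000 to 4000 bases. It then turned negative, with -0.29 for the 967 genes of 6000 to 8000 bases, -0.40 for the 339 of 8000 to 10000 bases and -0.63 for the 254 longer than 10000 bases. Of the longest class, 38 genes (14.96%) were called lower and 1 higher. Of the 157 lower genes with a length, 57 (36.3%) were longer than 8000 bases, against 593 (5.40%) of all 10975. In the shortest class, 4 genes (0.915%) were called lower and 4 higher. Across genes, Spearman's rho of the fold change was -0.56 with length, -0.05 with the GC content of the same transcript and -0.04 with the mean level over the fit (n = 10975 genes, which share the 8 libraries and are not independent). Each autoMACS-TRAP library set alone against the FACSAria-TRAP mean gave the same sign, with rho from -0.55 for mouse 73 to -0.45 for mouse 66.

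**Figure D2:**
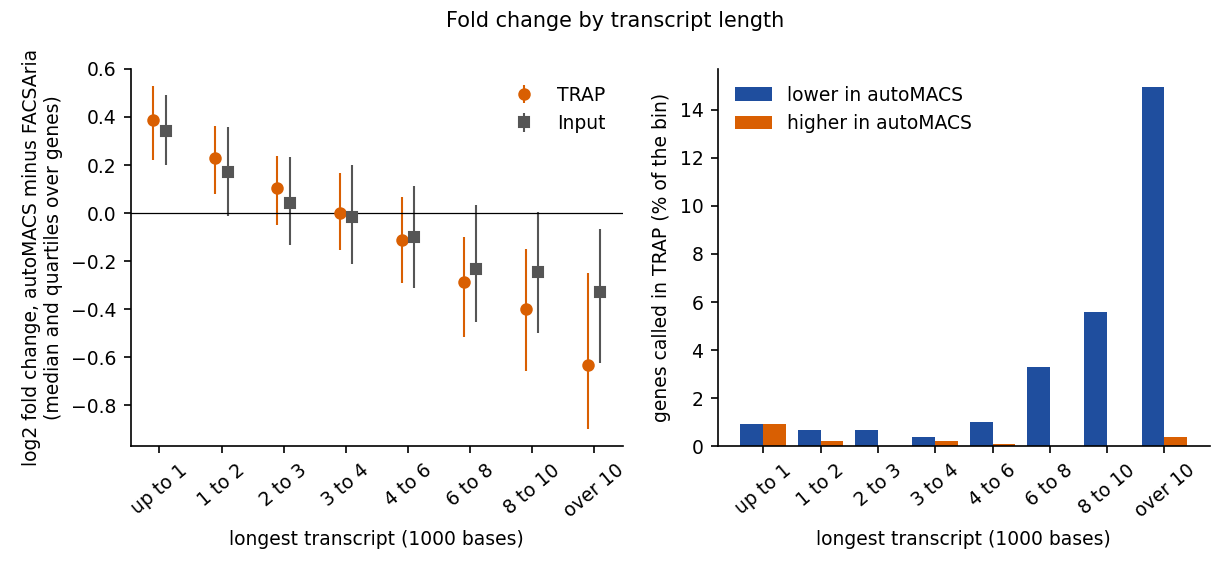
Left, the median log2 fold change of autoMACS minus FACSAria over genes (points, with quartiles as bars) by length of the longest transcript, for TRAP (circles) and Input (squares). Right, the percentage of genes in each length class called lower or higher in autoMACS-TRAP, which reaches 14.96% lower in the class over 10000 bases.

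The same order was visible as a share of each library. Transcripts longer than 8000 bases took 4.25% to 4.82% of the CPM in autoMACS-TRAP and 5.98% to 6.24% in FACSAria-TRAP. The share was 5.902% to 6.16% in autoMACS to Tyto-TRAP, 5.69% to 6.16% in Tyto-TRAP, 5.77% to 6.24% in Cell-TRAP and 6.68% to 7.65% in Tissue-TRAP, so the 4 autoMACS-TRAP libraries lay below all the other 20 TRAP libraries. Transcripts of at most 1000 bases took 2.89% to 3.36% in autoMACS-TRAP, above the 2.38% to 2.73% in FACSAria-TRAP. For these short transcripts autoMACS-TRAP did not stand apart from every group: Cell-TRAP, at 2.77% to 2.995%, overlapped it, and Tissue-TRAP, at 3.45% to 3.86%, lay above it. Among the 8 autoMACS-TRAP and FACSAria-TRAP libraries, mouse 73 had the lowest share of long and the highest share of short transcripts. Depth also differed between the groups, and its part in the length order was not tested. No measure of RNA integrity was used here, and whether it differed between the groups was not tested.

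**Figure D3:**
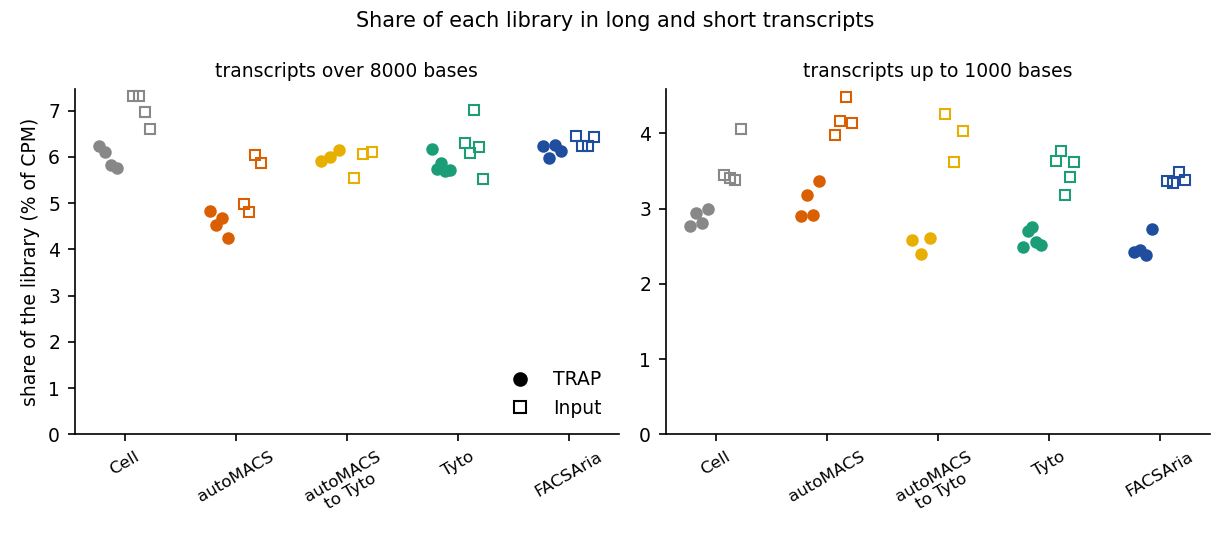
Share of each library (vertical axis, percent of CPM, from 0) taken by transcripts over 8000 bases (left) and up to 1000 bases (right), with 1 point per library, filled for TRAP and open for Input. On the left, the filled autoMACS points sit at 4.25% to 4.82%, under those of every other group.

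Removing a smooth length trend from each library before the fit, an alternative chosen after seeing the data, left 310 genes lower and 49 higher. Of the 158 lower genes with more than 5 counts in all 8 libraries, 73 remained called lower, and of the 57 among them longer than 8000 bases, 10 did. Polr2a (-1.79), Spen (-1.28), Nav3 (-1.38) and Cbl (-1.24) remained called. Birc6 (-0.59), Dst (-0.50) and Lrp1 (-0.37) no longer passed the 2-fold threshold.

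Complexes whose subunits have mRNAs of different length were examined next. These lists were written after the values were seen and are descriptions only. RNA polymerase II has 12 subunits, all of them measured. Polr2a was lower, the second largest subunit Polr2b was at -0.28 ± 0.07, and the 10 small subunits lay between 0.17 (Polr2d) and 0.58 (Polr2l). Of 33 genes of the Mediator complex, which carries signals from activators to the polymerase, 1 was lower, Med12 (log2 fold change -1.27 ± 0.11, adjusted p = 4.7e-08), and the median was 0.02. Of 19 measured genes listed under the H3K4 methyltransferase complexes, which mark active promoters and enhancers, 4 were lower. These were Mll1 (-1.18), Wbp7 (-1.06), Mll5 (-1.17) and Setd1b (-1.24), all of them genes for SET-domain proteins. In that list, 15 of 19 genes were below 0 and the median was -0.34, while the small core subunits Wdr5 (0.20) and Dpy30 (0.51) were above 0 and did not pass the 2-fold threshold. Of 30 nuclear pore genes, Nup98 (-1.07) and Nup188 (-1.04) were lower, 24 were below 0, and the median was -0.23. For comparison, 1.43% of all genes with more than 5 counts in all 8 libraries were lower. With the length trend removed, none of the Mediator, H3K4 methyltransferase and nuclear pore genes was called: Mll1 was at -0.45, Wbp7 at -0.69, Mll5 at -0.87 and Setd1b at -0.84, and Nup98 at -0.82 and Nup188 at -0.86. Without mouse 73, Wbp7 (-0.99), Nup98 (-0.95) and Nup188 (-0.95) also fell short.

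Gene groups with short mRNAs had small positive medians. Of 81 measured cytosolic ribosomal protein genes, none was called, 1 had a value below 0, and the median difference was 0.31, against -0.01 over all genes tested. Their summed level was 14778 to 17932 CPM in autoMACS-TRAP and 12132 to 14444 CPM in FACSAria-TRAP. Of 77 nuclear genes for the respiratory chain and ATP synthase, none was called, 1 had a value below 0, and the median was 0.43. Their summed level was 5054 to 5755 CPM in autoMACS-TRAP and 4220.0 to 4493 CPM in FACSAria-TRAP, and neither pair of ranges overlapped. Rpl10a, the ribosomal protein that carries the tag, was at 0.03 ± 0.08.

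Microglial identity genes differed little between the sorts. All 282 microglial markers of the study were measured, and all 282 passed the count filter in both groups. Of these markers, 1 was lower (0.355%, against 1.43% of all genes past the filter in both groups) and none was higher. Their median was -0.02. The exception was Rel, an NF-kB subunit with a long mRNA, at 19.9, 13.8, 18.5 and 9.43 CPM against 33.04, 28.8, 29.2 and 39.2 CPM (log2 fold change -1.08 ± 0.19, adjusted p = 0.000187), and it fell short of the threshold without mouse 73 (-0.90), without mouse 992 (-0.98) and with the length trend removed (-0.78). The summed level of the markers was 229057 to 236299 CPM in autoMACS-TRAP and 230966 to 240196 CPM in FACSAria-TRAP. Of 23 homeostatic microglial genes and 24 genes of disease-associated microglia, none was called in either direction. Tmem119 was at 0.17 ± 0.08 and the lectin Siglech at 0.15 ± 0.06. P2ry12 was at -0.13 ± 0.07.

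Differences below 2-fold could still be larger than the spread between libraries. Csf1r, the receptor on which microglial survival depends, lay at 11561, 10929.5, 11643 and 9871 CPM against 12805, 13565, 14326 and 12706 CPM (log2 fold change -0.28 ± 0.07, adjusted p = 0.00434), with no overlap. Trem2, a lipid-sensing receptor, was higher by less than 2-fold, at 1385, 1417, 1314 and 1448 CPM against 1132, 1222, 1119 and 962 CPM (log2 fold change 0.33 ± 0.08, adjusted p = 0.00392). Sall1 was at -0.50 ± 0.09 (adjusted p = 0.000213). These 3 genes were named after their values were seen. Within the microglial markers, the median was -0.29 for the 22 genes longer than 6000 bases, -0.05 for the 196 of 2000 to 6000 bases and 0.19 for the 64 of at most 2000 bases.

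The antigens used for sorting did not pass the threshold. Itgam, which encodes CD11b, the target of the beads and of 1 of the antibodies, lay at 2912, 2869.8, 3059 and 2804 CPM against 3343, 2981, 3601 and 3032 CPM (log2 fold change -0.15 ± 0.09, adjusted p = 0.218). Ptprc, which encodes CD45, was at -0.11 ± 0.12. Cx3cr1, whose locus drives the recombinase, lay at 4237, 4036, 4235 and 3696 CPM against 4623, 4899, 4921 and 3989 CPM (log2 fold change -0.19 ± 0.07, adjusted p = 0.0669), a difference of less than 2-fold. The groups overlapped for Itgam, Ptprc and Cx3cr1.

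Genes of acute activation, which rise when microglia are taken out of the tissue, gave 1 lower gene in each of 3 lists and none among cytokines, and over all genes 3.16% were lower. Of 38 immediate early genes, 1 was lower, Nr4a3 at 0.285, 0.114, 0.772 and 0.104 CPM against 1.21, 0.4004, 0.3900 and 2.57 CPM, a level near the detection limit at which the groups overlapped, and none was higher. The Nr4a3 call was lost without mouse 69, 992, 66, 67 or 73 (-1.75, -1.05, -1.75, -1.53 and -1.49) and with the length trend removed (-1.63). Over the alternatives, 0 to 2 immediate early genes were lower. With at least 10 counts in every library of the fit, Nr4a3 was not tested and 1 other was lower. Of the 38 genes, 29 were below 0, and the median was -0.13. Fos lay at 4475, 4152, 4717 and 3765 CPM against 4389, 4189, 3806 and 5973 CPM (log2 fold change -0.10 ± 0.15, adjusted p = 0.681). Jun was at 0.11 ± 0.13. None of 12 cytokine genes was called: Il1b lay at 53.2, 61.6, 115 and 63.8 CPM against 90.4, 128, 85.9 and 151 CPM (log2 fold change -0.63 ± 0.35, adjusted p = 0.212), and Tnf was at -0.26 ± 0.30. Of 18 NF-kB subunit and feedback genes, 1 was lower, Rel. Of 17 chemokine genes, 1 was lower, Cxcl12, which lay at 0.7002, 2.34, 11.2 and 1.64 CPM in FACSAria-TRAP and did not pass without mouse 991, its highest library (-0.67). The FACSAria-TRAP library of mouse 992 was the highest of the 8 for Fos, Jun, Il1b and Tnf.

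Stress and interferon genes gave no call. None of 19 heat shock genes was called (median 0.33), nor any of 17 chaperones of the endoplasmic reticulum (median 0.20), 18 genes of the integrated stress response or 32 interferon-stimulated genes (median 0.26). Hspa1a, the inducible chaperone, was variable within both groups, at 137, 69.8, 90.4 and 44.4 CPM against 100.2, 61.6, 70.3 and 147 CPM. None of the 11 MHC class I genes was called (median 0.32), and none of the 9 MHC class II genes (median -0.15). The same was true of 37 cell cycle, 29 actin and motility, 22 lysosomal, 17 antioxidant, 15 Toll-like receptor, 12 glucocorticoid response, 9 purinergic and 7 Fc receptor genes. Single members were lower in 3 other lists, at under 4 CPM in every library: Npas2 among 14 clock genes, C1s among 18 complement genes, and Aldoc among 32 glycolysis and hypoxia genes.

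**Figure D4:**
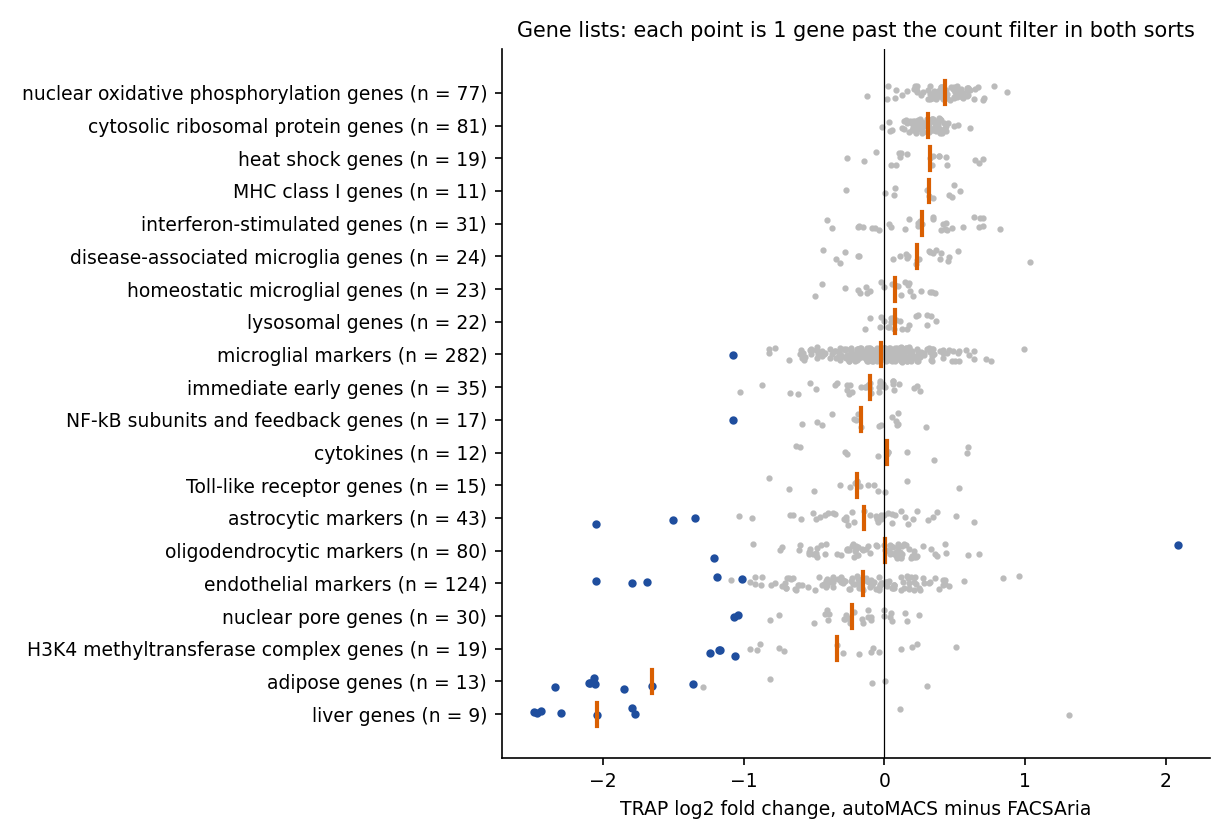
TRAP log2 fold change of autoMACS minus FACSAria (horizontal axis) for the members of 20 gene lists (rows), with 1 point per gene with more than 5 counts in all 8 libraries, dark where the gene was called, and a bar at the list median. The medians run from -2.05 for liver genes to 0.43 for oxidative phosphorylation genes, with microglial markers at -0.02.

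Genes of liver and adipose tissue were lower in autoMACS-TRAP and were found at low level in all 8 libraries. Alb, the main plasma protein made by the liver (chr5:90460889-90476603), lay at 8.32, 9.73, 15.01 and 26.05 CPM in autoMACS-TRAP and at 82.9, 90.01, 52.6 and 104 CPM in FACSAria-TRAP (log2 fold change -2.47 ± 0.56, adjusted p = 0.00243). Apoa2, an apolipoprotein of high-density lipoprotein, lay at 0.228, 0.172, 0.772 and 1.35 CPM against 6.11, 5.605, 2.405 and 6.32 CPM (log2 fold change -2.98 ± 0.64, adjusted p = 0.00144). Bhmt, a liver enzyme of methionine metabolism, was lower (log2 fold change -2.76 ± 0.66, adjusted p = 0.00349), as was Ahsg, the plasma glycoprotein fetuin-A (log2 fold change -2.44 ± 0.59, adjusted p = 0.00402). These 4 genes were named from the genes whose groups did not overlap.

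Among genes typical of fat, Fabp4, a fatty acid carrier of adipocytes, lay at 2.45, 2.98, 4.41 and 7.97 CPM against 13.7, 15.1, 18.5 and 27.7 CPM (log2 fold change -2.06 ± 0.54, adjusted p = 0.00752). Car3, a carbonic anhydrase of adipocytes and muscle, lay at 3.703, 2.52, 5.52 and 7.81 CPM against 16.4, 15.01, 24.2 and 26.2 CPM (log2 fold change -2.06 ± 0.53, adjusted p = 0.00655). Adipoq, the adipocyte hormone adiponectin, was lower (log2 fold change -2.10 ± 0.58, adjusted p = 0.0108), as was Pck1, an enzyme of gluconeogenesis in liver and fat (log2 fold change -2.09 ± 0.60, adjusted p = 0.0141). In lists written after these values were seen, 39 of 41 measured liver genes and 10 of 16 adipose genes were lower, against 3.16% of all genes, and none was higher. Among those with more than 5 counts in all 8 libraries, 7 of 9 liver and 8 of 13 adipose genes were lower, against 1.43% of all such genes. The other two liver genes, Trf and Ttr, are also made in the brain, and lay at 0.11 ± 0.07 and 1.31 ± 0.73. Of the 41 liver genes, 30 passed the count filter in FACSAria-TRAP, where they were high, but not in autoMACS-TRAP. How many of them also passed in another group of the fit was not counted.

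These levels did not follow the droplet sorter alone. In autoMACS to Tyto-TRAP, Alb lay at 35.6 CPM in mouse 66, 23.8 CPM in mouse 67 and 145 CPM in mouse 73, above all FACSAria-TRAP libraries in the last. Fabp4 in the same libraries was at 7.99, 7.43 and 43.1 CPM. In Tyto-TRAP, Alb lay at 6.903 to 26.04 CPM and in Cell-TRAP at 5.55 to 21.6 CPM. Within autoMACS-TRAP, mouse 73 was the highest of the 4 for Alb, Apoa2, Bhmt, Ahsg, Fabp4, Car3 and Adipoq. In the Input of the same mice, Alb lay at 14.1, 16.7, 125 and 129.8 CPM after autoMACS and at 632, 98.5, 93.8 and 147 CPM after FACSAria. The groups overlapped (-1.78 ± 0.74, adjusted p = 0.133). In each sort, Alb in the Input of the male mice lay below that of the female mice. The source of liver and fat transcripts in brain libraries was not tested.

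**Figure D5:**
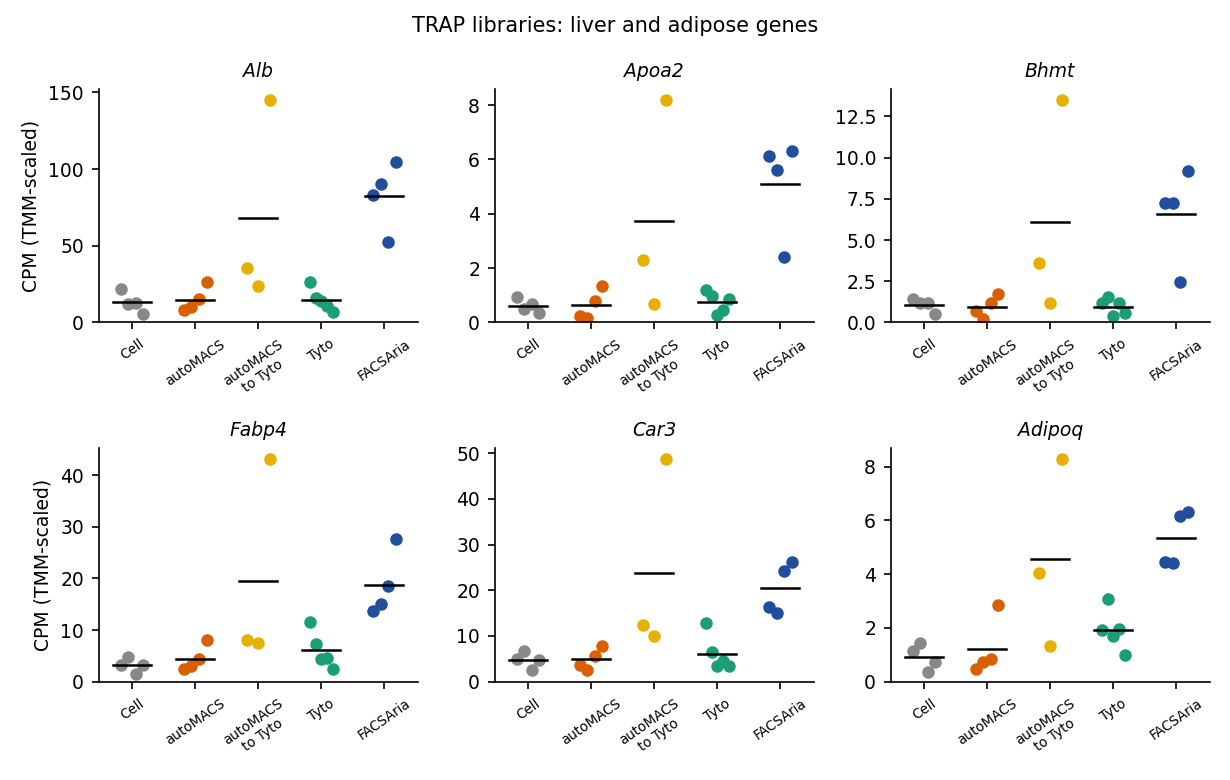
CPM (vertical axis, TMM-scaled, from 0) of 3 liver genes (top) and 3 adipose genes (bottom) in the TRAP libraries of the cell suspension and the 4 sorts (horizontal axis), with 1 point per library and a line at each group mean. For Alb, the FACSAria-TRAP libraries sit at 52.6 to 104 CPM above all autoMACS-TRAP libraries, and 1 autoMACS to Tyto-TRAP library reaches 145 CPM.

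Among markers of other brain cells, most of those called passed the count filter only through other groups of the fit, where they are high. These did not have more than 5 counts in every library of either sort. Of 138 astrocytic markers, 23 (16.7%) were lower and none was higher, against 3.16% and 0.468% of all genes. By adjusted p, Fmo1 and Ttpa came first, with means of 0.111 and 0 CPM against 1.21 and 0.520 CPM. In autoMACS to Tyto-TRAP both were highest in mouse 73, as Alb was. Unlike Alb, both were higher in every Cell-TRAP library than in any FACSAria-TRAP library. Their source was not tested. Slc1a2, the main glutamate transporter of astrocytes, lay at 0.684, 0.744, 1.05 and 1.61 CPM against 3.37, 1.601, 8.06 and 4.21 CPM (log2 fold change -2.05 ± 0.52, adjusted p = 0.00569). Grm3, a metabotropic glutamate receptor, was at -1.34 ± 0.32. Of 191 oligodendrocytic markers, 18 (9.42%) were lower and 1, Enpp2, was higher. Of 97 neuronal markers 7 (7.22%) were lower, and of 233 endothelial markers 17 (7.30%) were lower, with none higher in either list. Of these markers, 82 astrocytic, 105 oligodendrocytic, 86 neuronal and 86 endothelial genes passed the count filter only through other groups of the fit. Among those with more than 5 counts in all 8 libraries, 3 of 43 astrocytic, 1 of 80 oligodendrocytic, none of 10 neuronal and 5 of 124 endothelial markers were lower, against 158 of 11037 (1.43%) of all such genes.

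The summed levels of these lists overlapped between the sorts. Astrocytic markers summed to 4199.9 to 6049 CPM in autoMACS-TRAP and to 3678 to 5472 CPM in FACSAria-TRAP. Oligodendrocytic markers summed to 3957 to 3999.5 CPM and 3923 to 4322 CPM, neuronal markers to 71.5 to 86.7 CPM and 64.7 to 120.1 CPM, and endothelial markers to 8854 to 9378 CPM and 9002 to 10516 CPM. Each sum includes some genes that microglia express. In these bulk samples, fewer cells of a type and less RNA per cell cannot be told apart. The counts rested in part on single libraries. Leaving out 1 library at a time gave 13 to 28 lower astrocytic, 3 to 22 oligodendrocytic, 2 to 10 neuronal and 5 to 26 endothelial markers. Without mouse 991, a FACSAria-TRAP library, 13 astrocytic, 3 oligodendrocytic, 3 neuronal and 5 endothelial markers were lower, and in the fit of the 8 libraries alone the numbers were 8, 2, 1 and 6.

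Of the 70 genes higher in autoMACS-TRAP, 17 had more than 5 counts in all 8 libraries, and 5 reached a mean of 5 CPM in the higher group. Clec4a1, a C-type lectin receptor of myeloid cells, lay at 16.4, 26.8, 12.2 and 21.5 CPM against 9.55, 7.87, 9.29 and 11.5 CPM (log2 fold change 1.01 ± 0.29, adjusted p = 0.013), with no overlap. It fell below 2-fold with DESeq2 size factors (0.99) and without mouse 67 (0.81) among other alternatives. Neat1, a nuclear long noncoding RNA, lay at 30.9, 36.7, 47.1 and 266 CPM against 33.2, 27.5, 36.01 and 61.6 CPM (log2 fold change 1.27 ± 0.53, adjusted p = 0.0921), and without mouse 73 its value was -0.05. Enpp2, the lysophospholipase autotaxin, lay at 0.456, 6.81, 1.49 and 33.3 CPM against 1.02, 0.801, 7.34 and 0.624 CPM and was at 0.21 without mouse 73. Ttr, the thyroid hormone carrier secreted by the choroid plexus, lay at 1.14, 14.9, 3.59 and 54.02 CPM against 5.35, 5.004, 12.5 and 6.94 CPM and did not pass the test (log2 fold change 1.31 ± 0.73, adjusted p = 0.215). Mouse 73 held the highest value of all 8 libraries for Neat1, Enpp2 and Ttr, and without it 31 genes in all were higher in place of 70.

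Of 155 measured macrophage genes, 2 were higher, Clec4a1 and Gda, and 3 were lower, Hp, Pdpn and Plcb1, against 0.468% and 3.16% of all genes. Hp, which encodes haptoglobin, is also a plasma protein made by the liver. Like Alb, it was highest among the autoMACS to Tyto-TRAP libraries in mouse 73, at 14.6 CPM against 5.37 and 3.32 CPM in mice 66 and 67. Gda, a guanine deaminase, was at 0.53 without mouse 73. Of 16 genes of border-associated macrophages, which line the meninges and vessels, 1 was lower, the sialic acid receptor Siglec1 at 20.7, 39.6, 45.6 and 29.95 CPM against 65.5, 37.1, 78.5 and 107 CPM (log2 fold change -1.08 ± 0.41, adjusted p = 0.063), and it did not pass without mouse 992 (-0.83), 66 (-0.91), 73 (-1.03) or 991 (-1.04). Of these 16 genes 3 were below 0, and the median was 0.39. The mannose receptor Mrc1, a defining marker of these cells, was at -0.06 ± 0.28. Pf4, a platelet chemokine that border macrophages also make, was higher by less than 2-fold (log2 fold change 0.76 ± 0.27, adjusted p = 0.0425). Chosen after their values were seen, Ccl8, Cd209g and Emr4, all expressed by macrophages, were higher at 1.38 ± 0.53, 1.32 ± 0.37 and 1.23 ± 0.38, and reached at most 8.87, 6.01 and 7.03 CPM in any autoMACS-TRAP library. Cd209g passed in every alternative tried, Emr4 did not pass without mouse 73 (0.94), and Ccl8 did not pass in 6 alternatives.

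Of 8 neutrophil and monocyte genes, 2 were higher and 1, Hp, was lower, and of 6 erythroid and platelet genes 2 were lower, all at low levels. Of all genes, 0.468% were higher and 3.16% lower. Of the 8 neutrophil and monocyte genes, 4 passed the count filter only through other groups of the fit. Another 3 had more than 5 counts in all 8 libraries, and of these none was higher and 1 was lower. Ltf, which encodes lactoferrin, lay at 0.114, 1.32, 2.097 and 0.313 CPM in autoMACS-TRAP and had no count in any FACSAria-TRAP library. Ngp, neutrophilic granule protein, lay at 0.228, 0.572, 3.200 and 0.313 CPM and was found in 1 FACSAria-TRAP library, at 0.133 CPM. S100a8 and S100a9, the most abundant neutrophil transcripts, were not among the genes tested. Haemoglobin went the other way: Hba-a1 lay at 1.196, 1.77, 2.26 and 3.39 CPM against 5.35, 4.404, 7.08 and 9.204 CPM (log2 fold change -1.57 ± 0.55, adjusted p = 0.0403) and Hba-a2 was also lower. Among 6 fibroblast, 11 pericyte and smooth muscle and 11 choroid plexus and ependymal genes, the proteoglycan Dcn (-1.45), the adhesion protein Vtn (-1.80) and the ciliary transcription factor Foxj1 (-3.34) were lower and Enpp2 was higher. Dcn was not called without mouse 66 (-1.25), 67 (-1.25), 991 (-1.35) or 992 (-1.05). Foxj1 lay at 2.34 CPM in mouse 991 and at most 0.382 CPM in the other FACSAria-TRAP libraries, and was not called without mouse 991 (-1.63). In the fit of the 8 libraries alone Foxj1 was not tested. None of 6 lymphocyte and 8 dendritic cell genes was called.

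Some calls lie in gene clusters or overlapping loci where counting can move reads between neighbours. Pcdhgb2, a gamma-protocadherin that shares its last exons with 21 other measured genes of the cluster, lay at 28.9, 31.8, 29.5 and 20.7 CPM against 85.4, 93.1, 93.2 and 82.4 CPM (log2 fold change -1.67 ± 0.23, adjusted p = 1.68e-05). In the 22 measured genes of the cluster, 2 were lower and 7 were higher, against 3.16% and 0.468% of all genes. Of the 22, 18 passed the count filter in both groups. Among these 18, 2 were lower and 3 higher, against 1.43% and 0.154% of all such genes. The other 4 passed the filter in autoMACS-TRAP but not in FACSAria-TRAP. With at least 10 counts in every library of the fit, 2 genes of the cluster were lower and 0 were higher. The sum over the cluster was 108 to 142 CPM in autoMACS-TRAP and 173 to 214 CPM in FACSAria-TRAP, without overlap. BC096441, a read-through of Tnfsf12 and Tnfsf13, lay at 2.51, 4.23, 4.19 and 3.33 CPM against 18.9, 17.4, 18.7 and 18.7 CPM (log2 fold change -2.37 ± 0.30, adjusted p = 4.98e-06). Single values of Pcdhgb2 and BC096441 are therefore uncertain.

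The RNA before pull-down (Input) from the same 8 mice was set beside the TRAP values. In Input, 560 of 15076 genes (3.71%) differed, 305 (2.02%) higher and 255 (1.69%) lower in autoMACS. Polr2a was lower there as well (-1.87 ± 0.25, adjusted p = 0.000586), as were Spen (-1.20 ± 0.17, adjusted p = 0.000706), Nav3 (-1.73 ± 0.23, adjusted p = 0.000586) and Cbl (-1.68 ± 0.29, adjusted p = 0.00232). The median ran from 0.34 for genes of at most 1000 bases to -0.33 for those longer than 10000 bases, and transcripts longer than 8000 bases took 4.81% to 6.05% of the CPM after autoMACS and 6.23% to 6.45% after FACSAria. Of the 473 genes lower in TRAP, 463 were tested in Input, where 88 were called lower and 1 higher. The autoMACS-Input library of mouse 72 differed more from its group than any other, and without it 148 genes were higher and 204 lower. Without mouse 66 there were 493 higher genes, and without mouse 69 there were 167.

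Macrophage genes gave unlike counts in the fractions. In Input, 27 of 155 macrophage genes were higher in autoMACS and none was lower, against 2 higher and 3 lower in TRAP. Of 8 neutrophil and monocyte genes, 5 were higher in Input, while 2 were higher and 1 was lower in TRAP, and of 16 border-associated macrophage genes 2 were higher in Input and none in TRAP. Emr4, an adhesion receptor of macrophages, was at 2.00 ± 0.51, adjusted p = 0.0232 in Input. Of the long noncoding RNAs, 6 of 19 were higher in Input and 1 of 20 in TRAP. Over all genes, 2.02% were higher in Input and 0.468% in TRAP. The Input list counts were not repeated without mouse 72, so how far they rest on that library was not tested. Its Neat1 level was 2140 CPM, against 551 to 782 CPM in the other autoMACS-Input libraries. Whether the sort effect differed between the fractions was tested gene by gene with the mouse as a block, and no gene of 12301 passed in edgeR (0.0%), with 852 at an unadjusted p under 0.05. DESeq2 with the same block called 21 genes, 5 with a more positive and 16 with a more negative difference in TRAP. A gene called in 1 fraction only is thus not shown to differ between the fractions.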

How the data were processed

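Ribosome-bound (TRAP) and Input RNA was measured by stranded poly(A) RNA sequencing. The authors aligned reads to mm10 in Strand NGS, removed duplicates and listed 15919 genes with more than 5 reads in all samples of at least 1 group. The deposited raw columns hold estimated counts, of which 33.2% are whole numbers, and they were rounded here. The deposited log2 columns, which the authors normalized with DESeq2, served only as an alternative. A total of 23 symbols that had become dates were restored. The tables of the separate inhibitor experiment were not used.

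The 24 TRAP libraries, and separately 20 Input libraries, were fitted with edgeR 4.0.16 (R 4.3.3): TMM scaling, the quasi-likelihood test and Benjamini-Hochberg adjustment over all genes tested. Genes needed more than 5 counts in every library of at least 1 group. Calls needed a false discovery rate under 0.1 and a fold change above 2. The difference between fractions was tested in 16 libraries with the mouse as a block. The fits were tested on simulated data. DESeq2 1.42.0 and limma 3.58.1 were alternatives. The p-values of the TRAP and Input fits rest on the spread between libraries within groups, pooled over all groups, and treat libraries as independent. Some mice gave libraries to 2 groups. Mice 66, 67 and 73 gave to autoMACS and autoMACS to Tyto, and 69, 945 and 991 to Tyto and FACSAria. In TRAP, mice 946 to 949 gave to Tissue and Cell. The effect of this on the p-values was not tested. The fit of the 8 libraries alone held each mouse once.

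The genes named were the 10 called genes in each direction with the largest change among non-overlapping genes of at least 5 CPM, the 8 in each direction of at least 50 CPM, sort and microglial genes, and up to 4 called members in each direction of each list. Some genes under this rule are not reported here. Of 50 lists, 7 were added after their values were seen: liver, adipose, RNA polymerase II, Mediator, H3K4 methyltransferase, nuclear pore and gamma-protocadherin genes. The members and all lists were chosen with earlier results of these data known. Lengths came from GENCODE mouse release 21 and matched 15757 genes.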

Additional observations from a re-analysis of the deposited data

Results flagged for a closer look

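In 130 sets of 4 libraries, taken from named genes, length shares and total counts, 12 had a lone value far from the other libraries. All 12 were of named genes. Chance alone marks about 1 in 20 where values follow a normal distribution, which levels near 0 CPM need not do. In autoMACS-TRAP, mouse 73 stood apart for Neat1 at 266 CPM, Adipoq at 2.87 CPM and Tmem151a, a membrane protein gene, at 0.104 CPM, and mouse 72 for Ngp at 3.20 CPM. In FACSAria-TRAP, mouse 991 stood apart for Enpp2 at 7.34 CPM, Cxcl12 at 11.2 CPM, Foxj1 at 2.34 CPM and Ahsg at 2.08 CPM, which was high for the first 3 and low for Ahsg. Mouse 992 stood apart for Vtn at 10.8 CPM, mouse 69 for Cbl at 174 CPM, and mouse 945 for BC096441 at 17.4 CPM and for Ngp at 0.133 CPM, the sole FACSAria-TRAP library with an Ngp count. The low values of Cbl and BC096441 lay close to the rest of their group, and the groups of both genes did not overlap. No explanation was tested for these values.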

How the results depend on the processing

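No paired analysis was possible because autoMACS and FACSAria share no mouse, and the interaction of sort and fraction, which has the mouse as a block, gave 0 calls with no replicate block as well. For TRAP, 543 genes were called, 70 higher and 473 lower. With at least 10 counts in every library of the fit there were 112 (6 and 106), with the 8 libraries alone 317 (269 lower), with the libraries of the 4 sorts 323 (272 lower), with the length trend removed 359 (310 lower) and among genes past the count filter in both groups 175 (17 and 158). Leaving out 1 library gave 425 to 605 genes, 31 to 104 higher and 352 to 546 lower, with the 31 without mouse 73. For Input, 10 counts in every library gave 223 genes (120 and 103), the 8 libraries alone 147 (81 and 66), the 4 sorts 167 lower and the length trend removed 158 lower. Leaving out 1 library gave 352 to 772, with 148 to 493 higher and 179 to 313 lower. The totals were 352 without mouse 72 and 354 without mouse 69. For the interaction, no count filter gave 8 genes (2 and 6), 10 counts in every library 3 (0 and 3), DESeq2 with the block 21 (5 and 16), and leaving out 1 mouse 0 to 17 (0 to 3 and 0 to 14), with 17 without mouse 72. The direction turned for Neat1 (-0.046, with 1 library left out -0.046 to 1.56) and Ttr (-0.19, range -0.19 to 1.70) without mouse 73, for Fos (0.052, range -0.18 to 0.052) without mouse 992, and for Ptprc (0.075), Rpl10a (-0.21) and Trf (-0.0031) with the length trend removed. Of 54 called genes named by the rule, 27 were called in every alternative tried. The length trend and the filter in both groups were chosen after seeing the data. Fewer genes tested lower the counts under the stricter filters, and the cause of the other changes was not tested. Depth limits genes under 1 CPM, which rest on few reads.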
